A study of Mus musculus with 2 samples.

Results

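The genes described here are the type I interferon-stimulated genes, a set of 35 listed genes whose transcription is known to be induced when cells sense type I interferon. They were chosen by symbol, as rows whose gene symbol equals a listed one. Of the 35, 34 have a row among the 31053 genes of the count matrices, and Mx2 was not analysed here. All 34 passed the filter on low counts, so the counts below cover every member with a row.

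Type I interferons bind a receptor made of Ifnar1 and Ifnar2, which signals through the kinases Jak1 and Tyk2. Stat2 and Irf9 are subunits of the complex ISGF3, which this signal activates and which binds a DNA element called ISRE in front of its target genes. The products block viral RNA and protein synthesis, modify or degrade nucleotides, sense foreign nucleic acid, or feed back on the pathway. In the brain, microglia, the resident macrophages, and blood-borne monocytes are both known to respond to interferon.

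The study holds 1 group of 2 replicate libraries of single cells from the ischemic brain of Foxp3Egfp mice, 6 to 8 weeks old. Cells of this strain that express Foxp3, which defines regulatory T cells, are green fluorescent. Cells were sorted as CD45+CD11b+CD3-F4/80+ and are labelled macrophages. There is no group without stroke, the cDNA of stroke mice was pooled for sequencing, and the labels do not say whether the replicates came from separate animals. The p-values therefore measure only how class values vary between these 2 libraries, pooled over 8 cell classes with a shared library difference removed. This spread may be technical, and all comparisons are between kinds of cells of the same libraries.

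Barcodes counted as cells when they had 1000 or more unique molecular identifiers (UMIs, counts of captured transcripts), 500 or more genes, and no more than 10% of UMIs from mitochondrial genes. After removal of doublets, 13624 cells of replicate 1 and 7409 of replicate 2 were left, with a median of 4975.5 and 5612 UMIs. Levels are given as CPM, the UMIs of a gene per 1000000 UMIs summed over the cells of a class, first for replicate 1 and then for replicate 2. The labelled cell type was only in part borne out by markers. Cells with microglia markers, such as P2ry12 at 662 and 1294 CPM, made up 44.4% and 64.2% of the cells. Macrophage-like cells made up 26.3% and 2.63% (3580 and 195 cells), and monocyte-like cells, with the monocyte gene Ly6c2 at 630.0 and 826 CPM, 2.48% and 5.47% (338 and 405 cells). Neutrophil-like, dendritic cell-like, T or NK cell-like, cycling-like and fibroblast-like classes were smaller, and 17.2% and 13.9% of cells stayed without a name. Adgre1, the gene of the sorted antigen F4/80, was at 178 and 175 CPM in macrophage-like, 139.7 and 125 in microglia-like and 74.3 and 45.7 in monocyte-like cells. The class names were rebuilt here from marker genes. The clustering used none of the set or of the other listed pathway genes. Genes outside these lists, among them Slfn4, Ifi206 and Mndal named below, were not barred from it.

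One macrophage-like cluster stood apart from all other cells and bears on the results below. Cluster c14, led by Mrc1, Xist and Marco, held 241 and 17 cells. Xist, the RNA made from the inactive X chromosome of female cells, was at 331 and 249 CPM in c14 and at 0.393 and 0.327 CPM over all other clusters. At least 1 Xist UMI was seen in 60.6% and 41.2% of c14 cells and in 0.135% and 0.149% of the others. The 4 genes of the Y chromosome Ddx3y, Eif2s3y, Kdm5d and Uty together were at 33.3 and 32.1 CPM in c14 against 119.8 and 152 CPM in the others. Of the 146 and 7 c14 cells with Xist, 11 and 1 also had a UMI of these 4 genes. None of the c14 barcodes is among the 31 barcodes that the libraries share. Counts of the 34 genes called in the macrophage-like comparisons are therefore given with and without c14.

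Interferon-stimulated genes were highest in monocyte-like cells. Of the 34 genes, 32 had their highest class mean there. The exceptions were Bst2, highest in macrophage-like cells, and Ifi44, highest in dendritic cell-like cells at 6.54 and 12.6 CPM. For 21 of the 32 genes, both monocyte-like values lay above every value of the 7 other classes. Neither count was made over all genes, so neither shows whether the set is unusual in this. Summed over the 34 genes, monocyte-like cells reached 12793 and 16185 CPM. Microglia-like cells stood at 2487 and 2268 CPM, macrophage-like cells at 2522 and 5032 (1843 and 3567 without c14), dendritic cell-like cells at 4555 and 5781, and neutrophil-like cells at 3799 and 5621. Barcodes under 100 UMIs, which hold free RNA, carried the 34 genes at 2730.0 and 3780.0 CPM. Neither the microglia-like level nor the macrophage-like level without c14 was above that of free RNA in either library. With c14, the macrophage-like level was below it in replicate 1. Without Ifitm3, Ifi27l2a and Bst2, which hold most of the UMIs of the set, the sums were 3796 and 5996 CPM in monocyte-like cells and 769 and 783 CPM in microglia-like cells. In a test of any difference among the 8 named classes, all 34 genes were called (largest adjusted p = 0.000415), beside 85.7% of all 10398 genes tested, so the call itself does not set these genes apart.

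**Figure D1:**
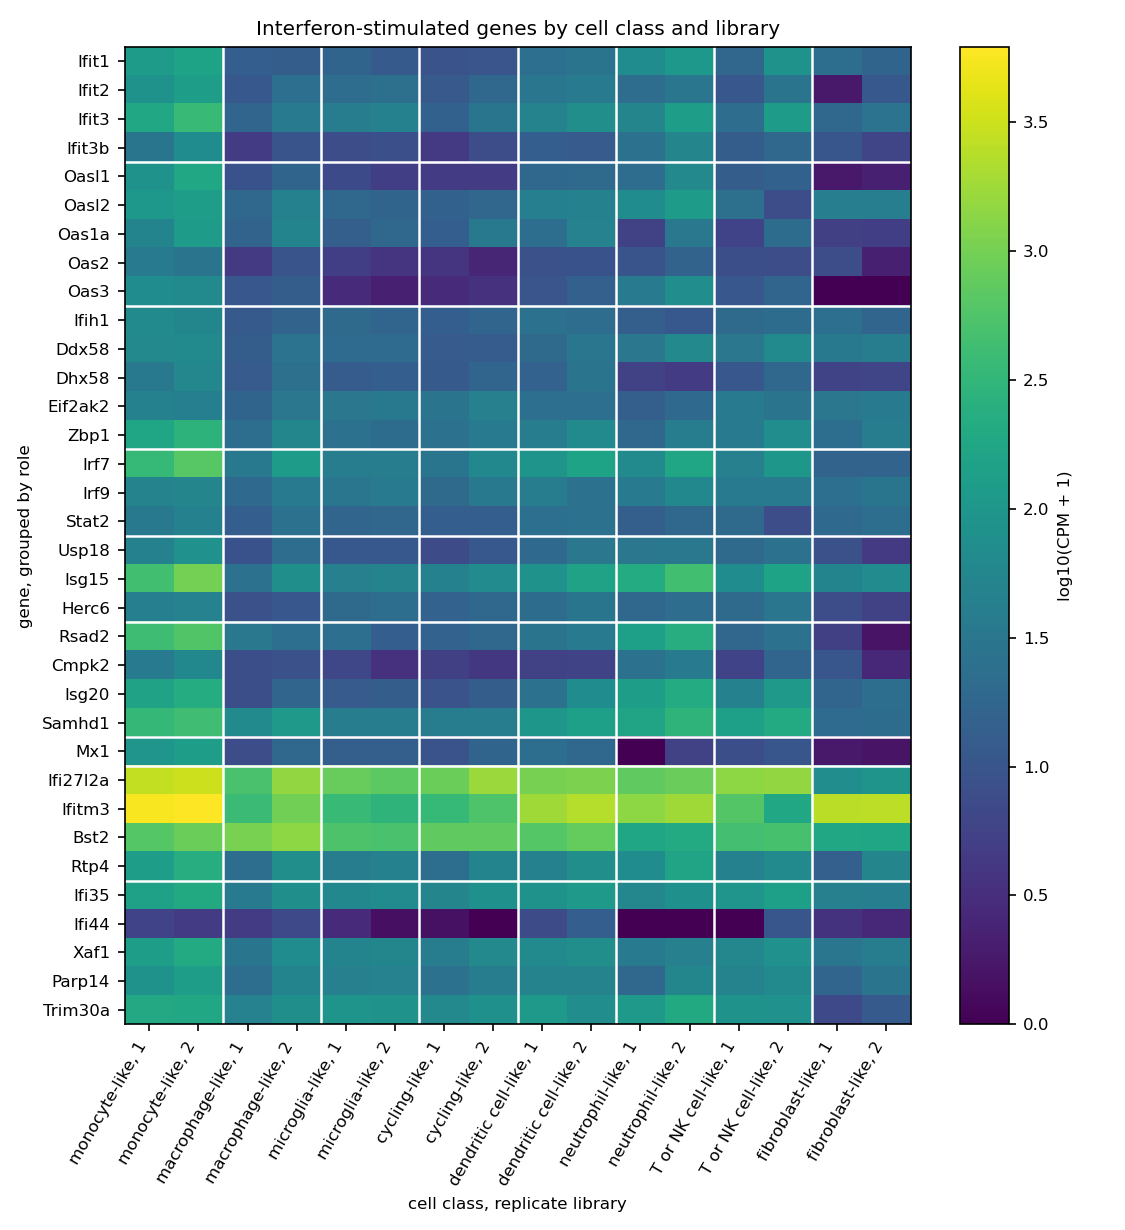
Level of each of the 34 genes, as log10 of CPM + 1, in each of 8 cell classes and both replicate libraries; white lines part classes and roles. The mean of the monocyte-like columns is the highest for 32 of 34 genes, and both of these columns exceed every other column for 21. Bst2 is highest in the macrophage-like columns. The counts were not made over all genes.

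Monocyte-like against microglia-like cells showed the clearest difference. All 34 genes were higher in monocyte-like cells, beside 20% of all genes tested that were called higher and 21.1% called lower. The median log2 fold change of the 34 genes was 2.78, against -0.13 for all genes tested, and the genes ranged from 0.73 (Eif2ak2) to 5.73 (Oas3). The libraries gave medians of 2.08 and 3.17. For each of the 34 genes the monocyte-like and microglia-like values did not overlap, a count that was not made over all genes. Tests used edgeR's quasi-likelihood fit of summed UMIs with library as a block and Benjamini-Hochberg adjustment over all genes tested. Fold changes are on edgeR's TMM scale, which sits 0.17 and 0.42 (log2) above plain CPM ratios in this comparison.

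The 4 Ifit genes encode proteins that bind foreign RNA and block its translation. Ifit1 was at 122 and 159.8 CPM in monocyte-like cells and at 15.9 and 11.0 CPM in microglia-like cells, a log2 fold change of 3.71 ± 0.24 (SE; adjusted p = 4.31e-15). Ifit3 was at 178 and 352 against 38.0 and 45.6 CPM (2.88 ± 0.21). Ifit2 and Ifit3b, the latter a near copy of Ifit3, were higher by 2.5 ± 0.20 and 3.13 ± 0.25. Replicate 2 was the higher library for all 4 in monocyte-like cells. Reads that match both Ifit3 and Ifit3b cannot be told apart, so their separate values are uncertain.

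The oligoadenylate synthetases make 2-5A, the signal that switches on RNase L against viral RNA. Oas3 had the largest fold change of the set: it was at 67.7 and 62.4 CPM in monocyte-like cells and 1.83 and 1.16 CPM in microglia-like cells (5.73 ± 0.25, adjusted p = 3.19e-19). Oasl1, a family member without synthetase activity that limits Irf7 translation, was at 86.7 and 189 against 6.09 and 4.11 CPM (5.06 ± 0.26). Oasl2, Oas1a and Oas2 were higher by 3.13 ± 0.23, 2.67 ± 0.22 and 3.45 ± 0.30. The 5 genes were thus all higher, by unequal amounts. Oas1a has close paralogs, so its counts are uncertain in the same way.

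Among enzymes that act on nucleotides and nucleic acids, Rsad2, or viperin, makes a chain-terminating nucleotide. Rsad2 was at 416 and 582 CPM in monocyte-like cells against 23.4 and 12.8 CPM in microglia-like cells, 34.3-fold higher (5.10 ± 0.27). Cmpk2, its neighbour on chromosome 12 and a nucleotide kinase, was at 36.2 and 58.8 against 5.45 and 2.44 CPM (4.06 ± 0.30). Isg20, an exonuclease, was at 151 and 219 against 11.4 and 12.2 CPM, and Samhd1, which breaks down deoxynucleotides, at 335 and 428 against 39.4 and 39.4 CPM. Both were called higher, by 4.23 ± 0.21 and 3.55 ± 0.20. For Isg20, neutrophil-like cells at 126 and 217 CPM overlapped the monocyte-like range.

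Isg15 is a ubiquitin-like protein that is attached to other proteins, Usp18 removes it and dampens receptor signalling, and Herc6 is the mouse ligase for it. Isg15 was at 435 and 1002 CPM in monocyte-like cells and 43.4 and 48.5 CPM in microglia-like cells (4.13 ± 0.24, adjusted p = 1.31e-16). The monocyte-like libraries differed for this gene, and the lower one lay just under the higher neutrophil-like value (217 and 441 CPM). Usp18 was at 44.8 and 81.5 against 10.2 and 10.2 CPM (2.94 ± 0.23). Herc6 had a smaller difference, at 41.9 and 46.8 against 19.6 and 22.3 CPM (1.39 ± 0.19).

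The transcription factors of the pathway did not move alike. Irf7, which drives interferon alpha genes and is itself induced, was at 340.3 and 639 CPM in monocyte-like cells against 38.7 and 38.5 CPM in microglia-like cells (3.83 ± 0.25). The ISGF3 subunits Stat2 and Irf9 were higher by 1.59 ± 0.22 and 0.90 ± 0.20. Irf9 was at 48.6 and 52.4 against 29.8 and 36.5 CPM, and its monocyte-like range overlapped that of neutrophil-like cells (34.8 and 56.9 CPM). The call on Irf9 was lost after thinning each cell to 1000 UMIs (0.35, adjusted p = 0.438).

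Sensors of foreign nucleic acid had a median log2 difference of 2.01, between that of the transcription factors (1.59) and that of the Ifit genes (3.01). Ifih1 (MDA5) and Ddx58 (RIG-I), both receptors for double-stranded RNA, were higher by 2.01 ± 0.19 and 1.87 ± 0.21, and their relative Dhx58 by 2.18 ± 0.22. Eif2ak2, the kinase PKR that stops translation on double-stranded RNA, was at 44.8 and 42.5 against 31.0 and 32.6 CPM, the smallest difference of the set (0.73 ± 0.20, adjusted p = 0.00322). The call on Eif2ak2 was lost after thinning to 1000 UMIs (0.40, adjusted p = 0.358) and with plain CPM scaling (0.41, adjusted p = 0.115). Zbp1, a sensor of Z-form nucleic acid that can start necroptosis, was at 169.7 and 286 against 26.1 and 21.2 CPM (3.49 ± 0.22). Mx1, a dynamin-like GTPase against influenza-type viruses, was at 92.4 and 129 against 13 and 13.2 CPM (3.37 ± 0.21), and no other class came above 22.2 CPM.

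Proteins of membranes and the secretory route showed both a large and a small difference. Ifitm3, which blocks virus entry from endosomes, was at 5655 and 6181 CPM in monocyte-like cells and at 359 and 296 CPM in microglia-like cells (4.45 ± 0.32). Fibroblast-like cells were the next highest class for it, at 2542 and 2631 CPM. Bst2, or tetherin, which holds budding virus at the cell surface, was at 615 and 877 against 538 and 496 CPM (0.82 ± 0.18, adjusted p = 2.77e-04). Ifi27l2a, a mitochondrial membrane protein, was at 2728 and 3131 against 821 and 693 CPM and Rtp4, a receptor chaperone, at 134 and 229 against 38.2 and 44.6 CPM. Both were higher, by 2.21 ± 0.22 and 2.34 ± 0.22.

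The remaining genes were Ifi35, Xaf1, Parp14, Trim30a and Ifi44. Ifi35 is a binding partner of the related protein Nmi, Xaf1 favours cell death, Parp14 is a mono-ADP-ribosyltransferase and Trim30a restrains NF-kB signalling. They were higher in monocyte-like cells by 1.40 ± 0.20 (Trim30a) to 2.21 ± 0.71 (Ifi44) on the log2 scale. Ifi44 was sparse, at 4.77 and 3.54 against 1.87 and 0.417 CPM, and rests on 5 and 10 UMIs in monocyte-like cells.

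Markers of other cells also differed between these classes. The 12 neutrophil markers summed to 2969.8 and 1446 CPM in monocyte-like cells, with 10 and 11 of 12 detected and Ngp at 0, against 195 and 163 CPM in microglia-like cells. The 12 markers of monocyte-derived macrophages were at 19802 and 31306 CPM in monocyte-like and 5131 and 1873 CPM in microglia-like cells, beside 9125 and 11230.4 CPM for the 10 monocyte markers in monocyte-like cells. The 12 microglia markers were at 3945 and 1548 CPM in monocyte-like cells. The 34 genes summed to 3799 and 5621 CPM in neutrophil-like cells and to 12793 and 16185 CPM in monocyte-like cells. For some genes, such as Isg20, the ranges of these classes overlapped. The part of these markers in the result was not tested.

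Promoter sequences are shown for 7 genes to show the element in front of genes with large and with small differences: 6 genes with the ISRE core in front of their start, among them both Oas3 and Bst2, and Ifitm3, which had none. Sequences come from RefSeq (GRCm38.p6), where 26 of the 34 genes matched. Each line gives the 180 bases before the start of transcription, 5′ to 3′ on the gene's own strand, with each ISRE core in capitals. The core searched for was GAAANNGAAA on both strands, which reads TTTC on either side of a gap of bases on the opposite strand.
Ifit1 (chr19:34640709-34640888, plus strand): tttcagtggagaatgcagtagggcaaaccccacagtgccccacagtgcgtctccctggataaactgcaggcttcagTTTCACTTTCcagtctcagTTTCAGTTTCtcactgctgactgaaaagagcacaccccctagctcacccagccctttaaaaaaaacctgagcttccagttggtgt
Ifit3 (chr19:34583349-34583528, plus strand): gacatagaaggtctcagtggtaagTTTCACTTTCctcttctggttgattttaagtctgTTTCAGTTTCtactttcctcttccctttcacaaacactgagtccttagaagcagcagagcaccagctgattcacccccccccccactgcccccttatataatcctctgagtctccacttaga
Isg15 (chr4:156200819-156200998, minus strand): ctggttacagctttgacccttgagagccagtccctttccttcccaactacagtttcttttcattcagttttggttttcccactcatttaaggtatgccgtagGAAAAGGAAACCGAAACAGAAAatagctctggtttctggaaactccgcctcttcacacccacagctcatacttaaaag
Rsad2 (chr12:26456453-26456632, minus strand): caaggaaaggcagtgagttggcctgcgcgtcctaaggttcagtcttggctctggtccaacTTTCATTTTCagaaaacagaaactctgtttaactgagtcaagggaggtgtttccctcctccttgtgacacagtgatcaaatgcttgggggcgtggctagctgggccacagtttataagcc
Oas3 (chr5:120777660-120777839, minus strand): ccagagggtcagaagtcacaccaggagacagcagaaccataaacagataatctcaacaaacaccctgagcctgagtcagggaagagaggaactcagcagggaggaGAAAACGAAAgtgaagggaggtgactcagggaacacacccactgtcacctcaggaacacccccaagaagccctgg
Bst2 (chr8:71537473-71537652, minus strand): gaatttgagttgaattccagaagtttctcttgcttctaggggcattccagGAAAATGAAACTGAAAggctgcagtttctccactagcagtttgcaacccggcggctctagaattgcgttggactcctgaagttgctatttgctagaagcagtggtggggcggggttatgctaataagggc
Ifitm3 (chr7:141010745-141010924, minus strand): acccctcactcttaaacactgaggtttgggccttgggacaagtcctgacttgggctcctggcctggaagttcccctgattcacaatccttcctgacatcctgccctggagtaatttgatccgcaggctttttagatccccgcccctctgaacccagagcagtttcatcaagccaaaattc

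In the 250 bases before the start, the ISRE core was present in 10 of 26 genes (38.5%), against 3.46% of 27025 genes in the same table. The 10 were Ifit1, Ifit3, Ifit3b, Isg15, Rsad2, Oas1a, Oas3, Bst2, Stat2 and Trim30a. A second element, GAS (TTCNNNGAA, which reads the same on both strands), was present in 6 of 26 (23.1%), against 8.13% of all genes, with overlap between the motifs allowed. The nearest core lay 66 bases before the start in Isg15, 75 in Oas3, 85 in Ifit1, 120 in Rsad2, 122 in Ifit3 and 124 in Bst2. Bst2 carried the core with a monocyte-like difference of 0.82, and Oasl1, Isg20 and Ifitm3 carried none in this window with differences of 5.06 ± 0.26, 4.23 ± 0.21 and 4.45 ± 0.32. A match is only a match of letters, and binding was not measured.

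Macrophage-like against microglia-like cells gave a mixed picture that depended on which macrophage-like clusters were counted. With all 3 macrophage-like clusters, 13 genes were higher, 2 were lower and 19 were not called, beside 23.0% of all genes called higher and 24.8% called lower. The median log2 fold change was 0.26. Without c14, 5 genes were higher, 6 were lower and 23 were not called, beside 20.7% and 22.9% of all genes, and the median was -0.16. The libraries also differed: the median was -0.21 in replicate 1 and 0.91 in replicate 2, with the same sign in both for 16 of 34 genes. The 10 monocyte markers also differed between the macrophage-like libraries, at 519 and 1106 CPM (61.6 and 35.5 in microglia-like cells), with Ccr2 at 6.41 and 65.1 and Ly6c2 at 13.8 and 74.1 CPM, and their part in the result was not tested. TMM scaling sits 0.32 and 0.23 (log2) above plain CPM ratios here, and with plain CPM scaling 11 genes were higher, 7 were lower and the median was -0.04. Over all genes tested, plain CPM gave 13.9% higher, 38.1% lower and a median of -0.32, against -0.03 with TMM, so the scaling moved all genes down alike.

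**Figure D2:**
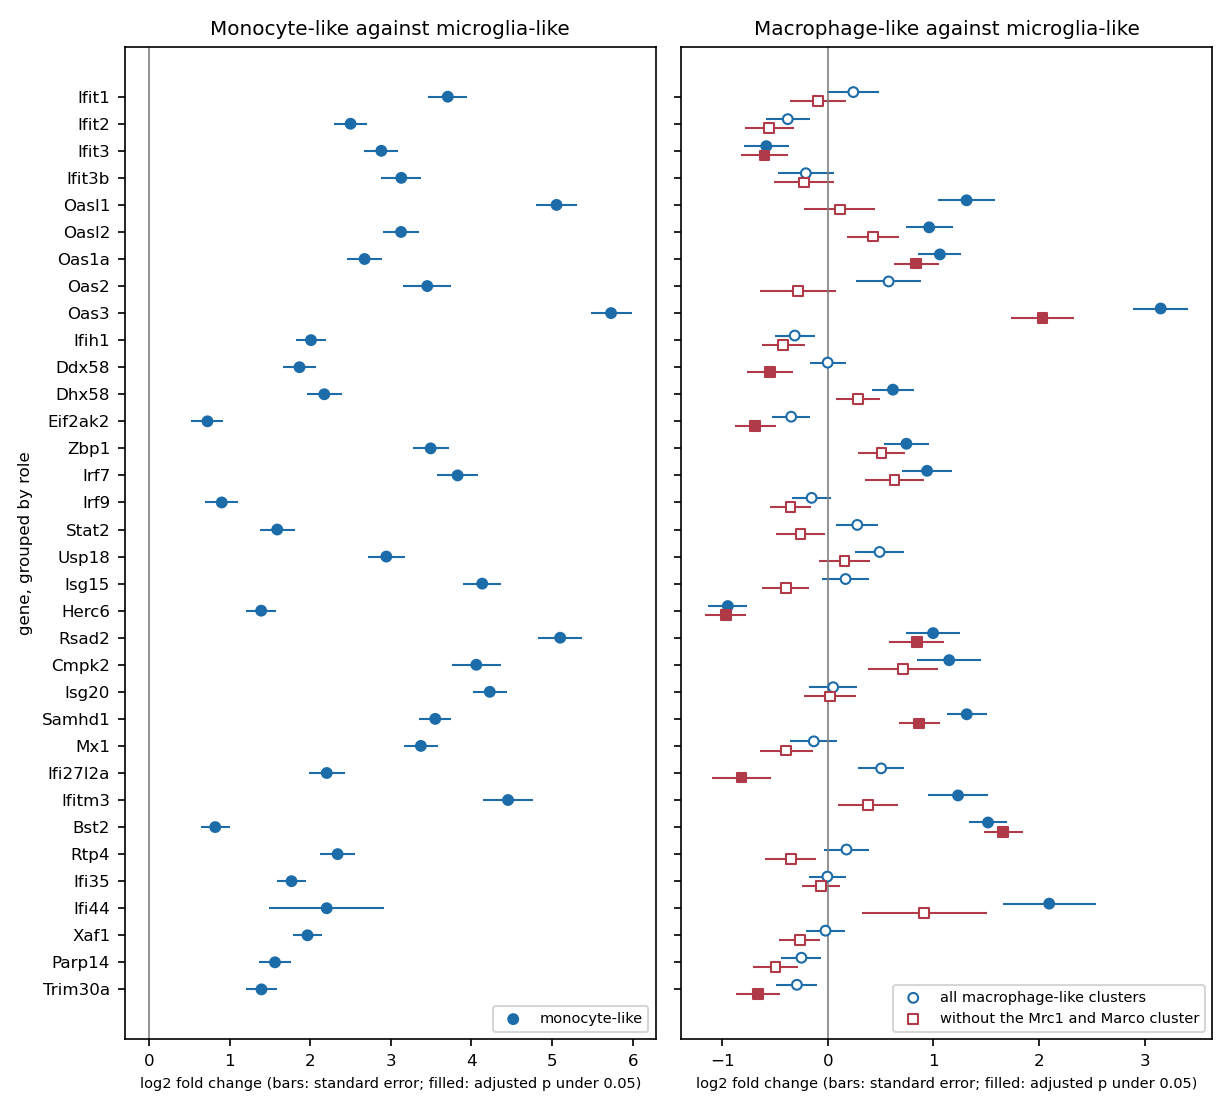
Log2 fold change with its standard error for each gene, monocyte-like (left) and macrophage-like (right) against microglia-like cells; filled symbols are calls at adjusted p under 0.05, circles use all clusters of the class, and squares leave out the Mrc1 and Marco cluster. All 34 circles on the left are filled and above 0, and on the right 13 circles but only 5 squares are filled above 0.

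Bst2, Oas3, Oas1a, Rsad2 and Samhd1 were higher in macrophage-like cells both with and without c14. Without c14, 3 of them were below their level in barcodes under 100 UMIs in both libraries. These were Oas3 (6.59 and 10.5 CPM in those barcodes), Rsad2 (25.1 and 22.5 against 27.2 and 43.0) and Samhd1 (45.9 and 68.6 against 58.9 and 75.5). Bst2 (660 and 476 CPM in those barcodes) and Oas1a (12.6 and 40.1 against 9.79 and 18.1) were above it. Bst2 was at 1085 and 1392 CPM in macrophage-like cells against 538 and 496 CPM in microglia-like cells (1.52 ± 0.18, adjusted p = 6.37e-09). Without c14 it was at 1101 and 1466 CPM (1.66 ± 0.18, adjusted p = 3.29e-09). Both libraries were above both microglia-like values in each case. Oas3 was at 9.87 and 12.1 against 1.83 and 1.16 CPM (3.15 ± 0.26), and at 3.97 and 6.58 CPM without c14 (2.03 ± 0.30). Samhd1 was at 61.0 and 111 against 39.4 and 39.4 CPM (1.32 ± 0.19), and 0.87 ± 0.19 without c14. Oas1a and Rsad2 were higher by 1.06 ± 0.20 and 1.0 ± 0.25, and by 0.84 ± 0.21 and 0.84 ± 0.26 without c14. For these 2 genes the ranges of the libraries overlapped, and with all clusters Rsad2 lost its call with DESeq2 (adjusted p = 0.0773) and Oas1a without the library block (adjusted p = 0.0606).

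The other 8 genes called higher lost the call without c14. They were Cmpk2, Oasl1, Oasl2, Irf7, Dhx58, Zbp1, Ifitm3 and Ifi44, with log2 fold changes of 0.11 ± 0.34 (Oasl1) to 0.91 ± 0.59 (Ifi44) there. Ifitm3 went from 1.23 ± 0.28 to 0.38 ± 0.28 (adjusted p = 0.297). Ifi27l2a, not called with all clusters (0.51 ± 0.22, adjusted p = 0.0525), was lower without c14, at 134 and 669 CPM (-0.82 ± 0.28, adjusted p = 0.0178). In c14 itself Ifi27l2a was at 4164 and 5135 CPM.

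Ifit3 and Herc6 were lower in macrophage-like cells with and without c14. Herc6 was at 7.86 and 9.88 against 19.6 and 22.3 CPM (-0.95 ± 0.19, adjusted p = 6.11e-05), with both libraries below both microglia-like values. Its call was lost with clusters weighted equally, where c3 stood alone (-0.37, adjusted p = 0.0504). It was also lost with cells thinned to 1000 UMIs (-0.49, adjusted p = 0.251). Ifit3 was at 16.0 and 35 against 38.0 and 45.6 CPM (-0.58 ± 0.21, adjusted p = 0.0225). The log2 difference was -0.89 in replicate 1 and -0.15 in replicate 2. The call on Ifit3 was lost with DESeq2 (adjusted p = 0.209), without the library block (adjusted p = 0.297) and at a finer clustering (-0.28, adjusted p = 0.321). It was also lost after thinning (-0.10, adjusted p = 0.798) and with c5, described below, added (-0.11, adjusted p = 0.679). With clusters weighted equally, where c3 stood alone, the Ifit3 value was 0.17 (adjusted p = 0.376). On the TMM scale, Eif2ak2, Ddx58, Trim30a and Ifi27l2a joined these as lower once c14 was left out. Eif2ak2 then had a log2 fold change of -0.69 ± 0.19, against -0.35 ± 0.18 with all clusters (adjusted p = 0.109). With plain CPM scaling, Eif2ak2 (-0.63, adjusted p = 0.00724) and Trim30a (-0.57, adjusted p = 0.0168) were called lower with c14 kept. The difference made by c14 was not itself tested.

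Macrophage-like cells were well below monocyte-like cells for nearly all of the set. Of the 34 genes, 32 were lower, beside 15.8% of all genes tested, Bst2 was higher, beside 13.6%, and Ifi44 was not called (adjusted p = 0.943). The median log2 fold change was -2.33, with -2.30 and -2.01 in the libraries and -2.74 without c14. Without c14 the counts were again 32 lower and 1 higher, beside 15.4% and 13.5% of all genes. This comparison shares its sums with both comparisons above, so its values are not independent of theirs.

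With c14 included, Isg20 showed the largest difference, at 7.03 and 16.2 CPM in macrophage-like cells against 151 and 219 CPM in monocyte-like cells (-4.18 ± 0.23). Rsad2 (-4.10 ± 0.27), Isg15 (-3.97 ± 0.24) and Oasl1 (-3.74 ± 0.27) followed. Without c14 the order was Oasl1 (-4.93 ± 0.32), Isg15 (-4.55 ± 0.24), Rsad2 (-4.24 ± 0.28) and Isg20 (-4.20 ± 0.25). Bst2 was at 1085 and 1392 CPM against 615 and 877 CPM (0.69 ± 0.18, adjusted p = 0.00273), and the ranges did not overlap. With doublets kept, the value was 0.49 (adjusted p = 0.0677).

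The 3 macrophage-like clusters held unlike levels of the set. The summed level of the 34 genes was 9219 and 11625 CPM in c14, 2087 and 4085 CPM in c3 (led by Wfdc17, Ms4a7 and Apoe), and 1637 and 2246 CPM in c6 (led by Fabp4, Gpnmb and Spp1). Cluster c6 rests on 35 cells in replicate 2 and c14 on 17. Without Ifitm3, Ifi27l2a and Bst2 the sums were 1968 and 2332 CPM in c14, 512 and 1135 in c3 and 314 and 405 in c6. The neutrophil-like cluster c13 was then at 1500 and 2805 CPM, above c14 in replicate 2. Isg15 was at 85.8 and 247 CPM in c14, 24.0 and 50.4 CPM in c3 and 15.8 and 9.74 CPM in c6. An unnamed cluster led by Arg1, Pf4 and Clec4n (c5) was at 3687 and 5705 CPM. With c5 counted as macrophage-like, 20 genes were higher and 1 lower than in microglia-like cells, beside 27.9% and 22.8% of all genes. A small unnamed cluster led by Ear2, Ace and Itgal (c19) was at 5436 and 6438 CPM.

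**Figure D3:**
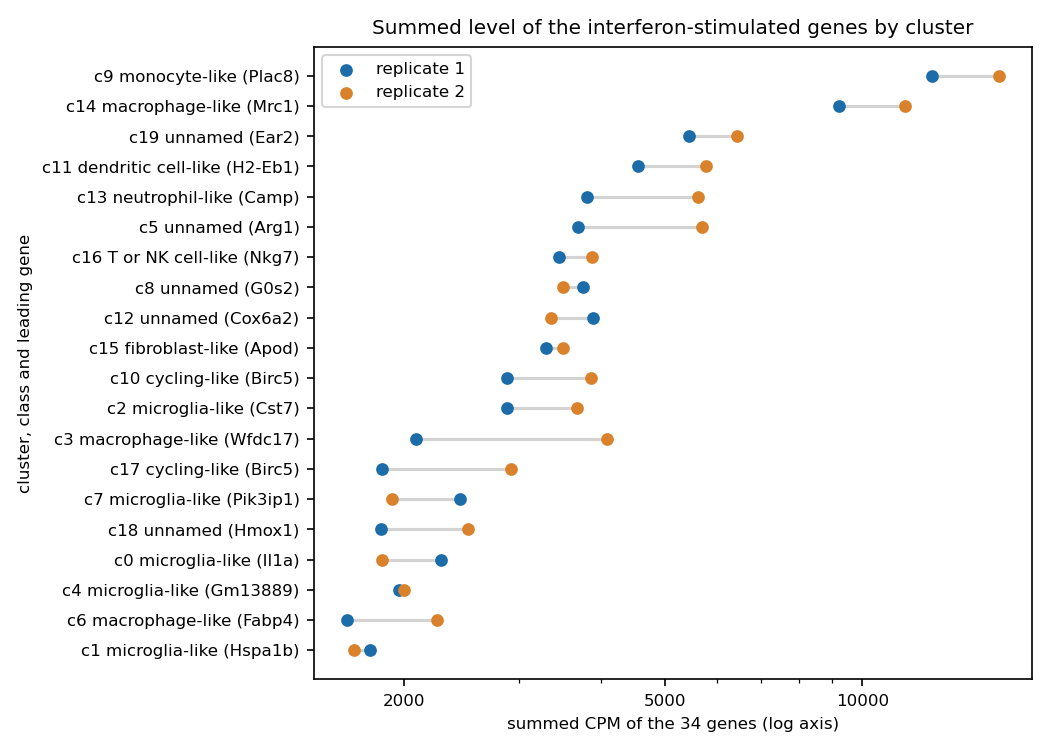
Summed CPM of the 34 genes, on a log axis, in each cluster of at least 100 cells, with 1 point per replicate library joined by a line and the leading gene of each cluster. The monocyte-like cluster c9 and the Mrc1 and Marco cluster c14 lie above all other clusters in both libraries. Without Ifitm3, Ifi27l2a and Bst2, which this sum includes, c14 lies below the neutrophil-like cluster c13 in replicate 2.

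Among the 5 microglia-like clusters the sums spanned a narrower range, from 1678 to 3669 CPM. Cluster c2, led by Cst7, Ch25h and Cd72, was the highest at 2877 and 3669 CPM, and c1, led by Hspa1b, P2ry12 and Slc2a5, the lowest at 1775 and 1678 CPM. This order did not hold without Ifitm3, Ifi27l2a and Bst2: c7 was then the highest in replicate 1 (876 CPM) and c2 in replicate 2 (964 CPM), and c4 the lowest in replicate 1 (652 CPM) and c0 in replicate 2 (716 CPM). Clusters are sums of cells of the same 2 libraries and were not tested against each other.

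Cells of a class were also compared with each other. To compare cells at equal depth, each cell was thinned to 1000 UMIs, and a cell with at least 2 UMIs of Ifit1, Ifit2, Ifit3 and Ifit3b together was called Ifit-positive. All cells had enough UMIs for this. Intervals below are exact Clopper-Pearson 95% intervals and cover counting error only.

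Ifit-positive cells made up 9.76% (6.82% to 13.4%) and 16.3% (12.8% to 20.3%) of monocyte-like cells, or 33 and 66 cells. Among microglia-like cells they were 1.04% (0.802% to 1.33%) and 1.05% (0.781% to 1.38%), or 63 of 6043 and 50 of 4756 cells. The monocyte-like intervals lay above the microglia-like ones in both libraries. Neutrophil-like cells stood at 7.06% (2.63% to 14.7%) and 5.90% (3.69% to 8.88%), and in replicate 1 this interval overlapped the monocyte-like one. Dendritic cell-like cells stood at 3.19% and 2.61%, macrophage-like cells at 0.922% and 3.08%, and fibroblast-like cells at 0.658% and 1.06%. Within macrophage-like cells the share was 3.73% and 0 of 17 cells in c14, 0.902% and 4.20% in c3, and 0.481% and 0 of 35 cells in c6. The microglia-like share could not be told from that of fibroblast-like cells, whose intervals reach 3.61% and 5.79%. Unthinned, Ifit3 was at 24.4 and 77.0 CPM in barcodes under 100 UMIs, which hold free RNA, against 38.0 and 45.6 CPM in microglia-like cells.

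**Figure D4:**
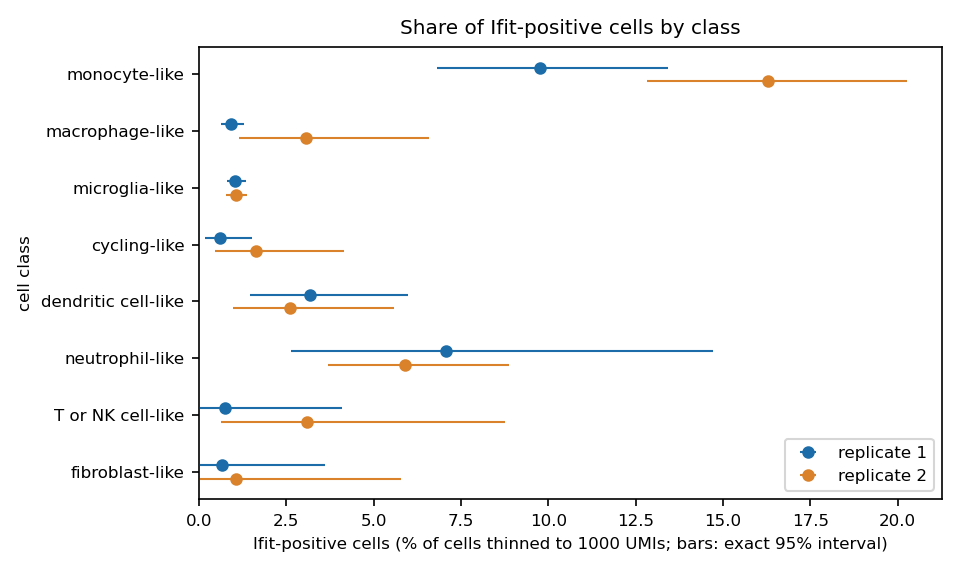
Percent of cells that are Ifit-positive (at least 2 UMIs of 4 Ifit genes in 1000 UMIs) by class and replicate library; bars are exact 95% intervals of counting. Monocyte-like cells have the highest values, 9.76% and 16.3%, but their interval overlaps that of neutrophil-like cells in replicate 1. Microglia-like cells sit near 1% in both libraries.

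Ifit-negative cells are those with no Ifit UMI in 1000, 5736 and 4557 microglia-like cells, and cells with 1 such UMI are in neither group. Of the 30 other genes of the set, 27 in replicate 1 and 28 in replicate 2 were more than 2-fold higher in Ifit-positive than in Ifit-negative cells, with median ratios of 6.73 and 9.69. Over all genes with a mean of at least 20 CPM, 14.4% and 17.9% exceeded 2-fold, with median ratios of 1.04 and 1.02. An Ifit-positive microglia-like cell held on average 5.41 and 6.30 other genes of the set in its 1000 UMIs, against 1.42 and 1.2 in an Ifit-negative one. At least 3 other genes of the set were found in 84.1% and 94.0% of the positive and 18.1% and 14.4% of the negative cells.

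The ratios between Ifit-positive and Ifit-negative microglia-like cells rest on few UMIs each and are a description with no test. Rsad2 was at 492 and 300.0 CPM in positive and 11.5 and 6.36 CPM in negative cells, ratios of 42.8 and 47.1. Isg15 was at 317 and 900.0 against 29.1 and 25.0 CPM, and Mx1 at 254 and 400 against 8.19 and 6.80 CPM. Among the smaller ratios with UMIs in both libraries were those of Ifi27l2a (2.39 and 2.47), Bst2 (2.90 and 4.74) and Samhd1 (3.85 and 3.78). Oas1a and Irf9 had no UMI in the positive cells of replicate 1, Oas2 had none in those of replicate 2, and Ifi44 had none in either.

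**Figure D5:**
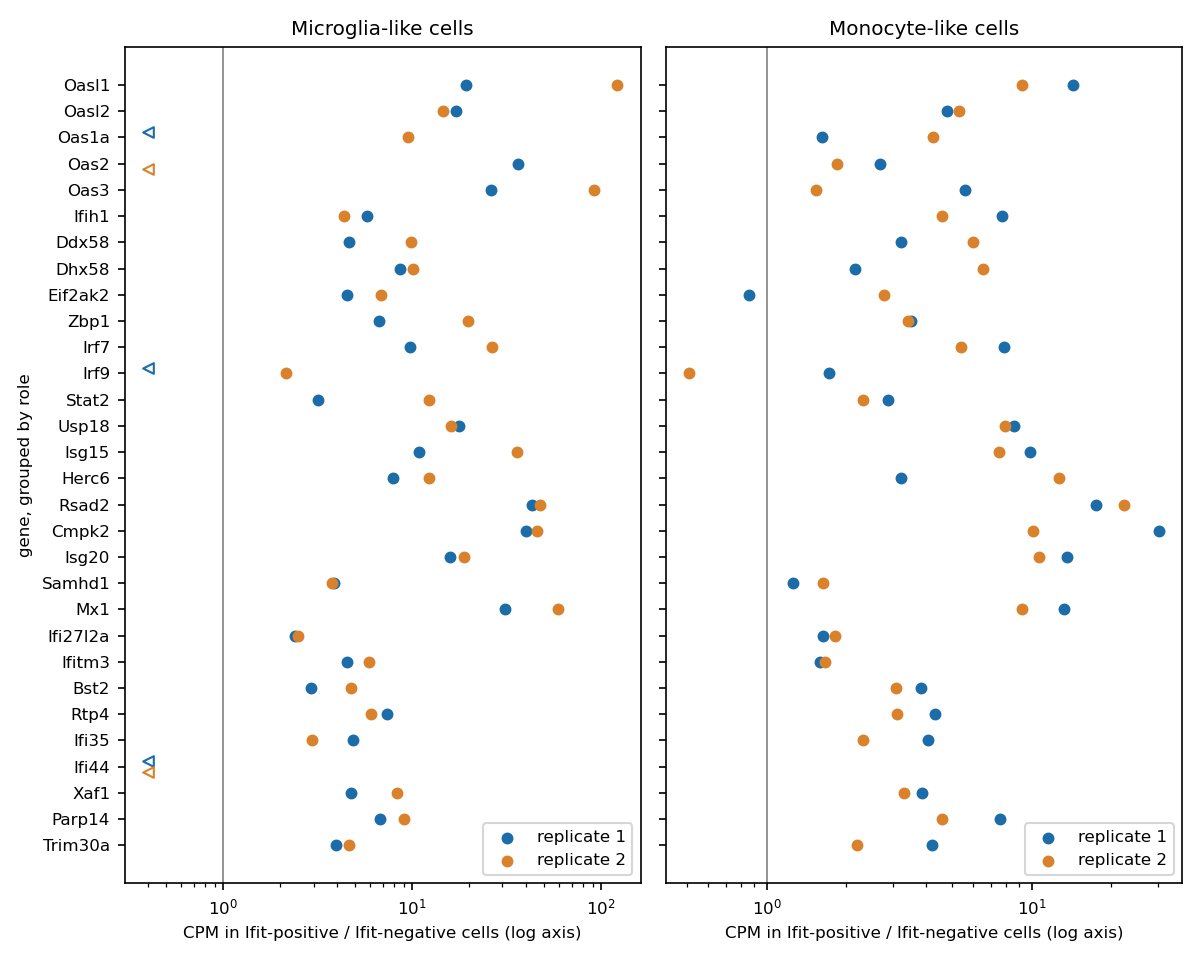
Ratio of CPM in Ifit-positive over Ifit-negative cells, on a log axis, for the 30 other genes in microglia-like (left) and monocyte-like (right) cells, 1 point per replicate library; open triangles at the left edge mark genes without a UMI in the positive cells. Most points lie above 1 in both classes, with Rsad2, Cmpk2 and Mx1 among the farthest right in microglia-like cells.

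Depth and markers of other cells were measured in both groups. Before thinning, Ifit-positive microglia-like cells had a median of 3901 and 5619.5 UMIs and Ifit-negative ones 3558 and 5088. The 12 microglia markers were at 11682 and 17320.0 CPM in positive and 15164 and 21906 CPM in negative cells. The 10 monocyte markers were at 0 and 40.0 against 49.2 and 33.1 CPM, and the 12 neutrophil markers at 206 and 180 against 221 and 169 CPM.

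Ratios were also above 1 for most of the set in monocyte-like cells. Of the 30 other genes, 23 in each library were more than 2-fold higher in Ifit-positive cells, with median ratios of 4.05 and 4.24, beside 22.1% and 16.5% of all genes. Rsad2 was at 3091 and 2924 CPM in positive and 176 and 132 CPM in negative cells, ratios of 17.6 and 22.2. Ifitm3 (1.59 and 1.66), Ifi27l2a (1.63 and 1.81) and Samhd1 (1.26 and 1.63) differed little. Ifit-negative monocyte-like cells held a mean of 4.06 and 4.25 other genes of the set, and 73.9% and 78.0% of them held at least 3. These counts include the abundant genes Ifitm3, Ifi27l2a and Bst2. The difference in ratio between the classes was not tested.

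Outside the set, 8 of the 15 genes with the largest ratios (10 CPM added to each level, at least 200 CPM in positive cells) were on the list of other pathway genes in each class. In microglia-like cells they included Ifi204, a DNA sensor (8.78 and 10.9), Slfn5 (7.91 and 12.4), the chemokine Cxcl10 that draws T cells (9.19 and 7.80), Ifi207, Phf11b, Ccl5 (5.89 and 27.4), Ccl12 (5.06 and 10.1), Slfn2, Zufsp, Ccl2, Etnk1, Apoc1 and Chmp4b. In monocyte-like cells they were Cxcl10 (39.6 and 45.4), the GTPase Gbp2 (11.7 and 19.0), Ifi205, Ly6a, Ifi206, Slfn4, Phf11b, Clec2d, Pnp, Ifi47, Tor3a, Phf11d, H2-T22, Ifi203 and Mndal. Cxcl10 and Phf11b stood in both classes. Of the genes named for microglia-like cells, Ccl5, Zufsp, Ccl2, Etnk1, Apoc1 and Chmp4b were not on the list of other pathway genes. For monocyte-like cells, Ifi206, Slfn4, Clec2d, Pnp, H2-T22, Ifi203 and Mndal were not on it. The share of listed genes among all genes with at least 200 CPM was not counted, so 8 of 15 cannot be called unusual.

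Interferon genes themselves were detected at low levels. Of 21 interferon genes in the files, 6 had any UMI. Ifnb1, interferon beta, had 347 and 130 UMIs in 209 and 70 cells, and 241 and 96 of these UMIs lay in microglia-like cells. That is 9.0 and 3.08 CPM in microglia-like cells, 14.4 and 6.31 CPM in dendritic cell-like cells, and 3.81 and 0 CPM in monocyte-like cells, where the set was highest. Ifnb1 was lower in monocyte-like than in microglia-like cells (-1.89 ± 0.76, adjusted p = 0.0432), on 4 and 0 UMIs. It was lower in macrophage-like cells too (-3.92 ± 0.49, adjusted p = 4.19e-08), on 12 and 0 UMIs. Ifng had 54 and 94 UMIs, of which 47 and 88 lay in T or NK cell-like cells. The other 4 detected genes, Ifna2, Ifnab, Ifnk and Ifnz, had at most 3 UMIs in a library. The remaining 15 were at 0, and a count of 0 still permits up to 0.0220% and 0.0405% of cells to hold a UMI (3 counts of the total).

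The receptor chain Ifnar1 was higher in monocyte-like cells, at 70.5 and 73.0 CPM against 44.6 and 42.9 CPM in microglia-like cells (1.03 ± 0.18, adjusted p = 1.52e-05). Ifnar2, the other chain, was at 147 and 176 against 163 and 228 CPM and was not called (0.03 ± 0.17, adjusted p = 0.908). Ifnar1 was not called between macrophage-like and microglia-like cells (adjusted p = 0.555). Ifngr1, a chain of the interferon gamma receptor, was lower in monocyte-like cells (-0.59 ± 0.18) and in macrophage-like cells (-1.91 ± 0.19) than in microglia-like cells.

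Of 123 other listed pathway genes, 120 are in the files and 96 were tested. Against microglia-like cells, 65 were higher and 10 lower in monocyte-like cells, with a median log2 fold change of 1.14, beside the 20% and 21.1% of all genes. Macrophage-like against microglia-like cells had 29 higher and 24 lower, beside 23.0% and 24.8%, and a median of -0.09. Against monocyte-like cells, macrophage-like cells had 1 higher and 67 lower, beside 13.6% and 15.8% of all genes. These counts include c14. By role, 54 of the 63 tested genes in the group of other induced genes were higher in monocyte-like cells, against 4 of 12 sensors, 6 of 14 signalling genes and 1 of 5 receptor chains. The largest differences were those of Ifitm1 (8.31 ± 0.41), Ifi205 (8.05 ± 0.27), Slfn1 (7.76 ± 0.34), Ms4a4c (6.41 ± 0.28) and Ifi47 (5.85 ± 0.26). In macrophage-like against microglia-like cells they were Tlr8 (4.74 ± 0.41), Ifnb1, Slfn1 (3.38 ± 0.39), Ifi47 (3.12 ± 0.26) and Socs3, a feedback inhibitor of cytokine signalling (-3.10 ± 0.23). In macrophage-like against monocyte-like cells they were Ifi205 (-6.23 ± 0.28), Ifit1bl1, Ifitm1, Ms4a4c and Cxcl10 (-4.42 ± 0.29).

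The classes differed in how the replicates compared. In microglia-like cells 18 of 34 genes were higher in replicate 2, with a median log2 difference of 0.0030, and in fibroblast-like cells 19 (0.031). In monocyte-like cells 28 were higher (median 0.48), in neutrophil-like cells 31 (0.75) and in macrophage-like cells 32 (1.08). Cycling-like cells had 30 higher (0.52), dendritic cell-like cells 29 (0.37) and T or NK cell-like cells 27 (0.56). Over all genes tested, the median differences lay between -0.09 and 0.09 in all 8 classes. The summed level of the set in barcodes under 100 UMIs was also higher in replicate 2, at 2730.0 and 3780.0 CPM. The macrophage-like class also had other makeup in the libraries, since c6 gave 1454 of 3580 cells in replicate 1 and 35 of 195 in replicate 2. Within c3 alone, on 1885 and 143 cells, the summed level was 2087 and 4085 CPM. The part of makeup in the difference between the libraries was not tested.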

How the data were processed

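Single-cell libraries were made with 10x Genomics 3' chemistry, per the labels' protocols. The values in the deposited matrices are raw UMI counts, by gene and barcode, with empty droplets included. The submitters' processing notes name Cell Ranger 4.0.0, STAR 2.5.1b and Seurat 4, and 99.86% of the gene IDs are in GENCODE vM21. The libraries held 101893367 and 62850768 UMIs.

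The filter on barcodes (1000 UMIs, 500 genes, 10% mitochondrial) passed 15050 and 7910. Scrublet removed 1426 doublets in replicate 1. It marked 0 in replicate 2, where the 501 highest-scored barcodes were removed instead. The libraries share 31 barcodes, against 17.52 if random.

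Cells were clustered with scanpy 1.11.5 (2000 variable genes, 30 components, Leiden resolution 0.8) without the set and the other listed pathway genes, and named by markers. A cluster with too few markers, or with leading genes against the name, stayed unnamed. UMIs were summed per library and class (16 sums of 8 classes, 7 residual degrees of freedom) and tested with edgeR 4.0.16 (TMM, filterByExpr, quasi-likelihood, library as a block, Benjamini-Hochberg adjustment over 10398 genes, threshold 0.05). The block is the library from which both sums come; deviations of the same library correlated at 0.28, 0.03 and 0.02 between class pairs. Scripts were tested on simulated data. Alternatives were DESeq2 1.42.0, other scalings, filters, clusterings, thinning, and leaving out a library. Genes named outside the set were the 5 pathway genes with the largest called differences in a comparison and the 15 with the largest ratios in Ifit-positive cells. The members and lists were chosen with earlier results of these data known. Some genes among those named by these rules are not reported here.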

Additional observations from a re-analysis of the deposited data

Results flagged for a closer look

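Barcodes with under 100 UMIs, which enter no comparison, also held UMIs of the 34 genes. Their summed level was 2730.0 CPM in replicate 1 (13677 UMIs) and 3780.0 CPM in replicate 2 (10469 UMIs). The summed level in microglia-like cells, 2487 and 2268 CPM, lay below both, and that in monocyte-like cells, 12793 and 16185 CPM, above both. Macrophage-like cells without c14, at 1843 and 3567 CPM, lay below the level of the same library in each case. With c14 (2522 and 5032 CPM) they lay below it in replicate 1 only. Cycling-like cells (2521 and 3789 CPM) were below it in replicate 1 only, and fibroblast-like cells (3297 and 3494 CPM) in replicate 2 only.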

How the results depend on the processing

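In monocyte-like against microglia-like cells every gene tested had a higher value under each alternative run; 33 were called with DESeq2 (not Ifi44), 33 with plain CPM scaling (not Eif2ak2), and 29 of 31 tested with cells thinned to 1000 UMIs (not Irf9 and Eif2ak2). With the interferon genes allowed in clustering, genes used for it were left out and 13 were tested: 13 were called among any classes, 13 were higher in monocyte-like cells (median 1.88), 12 were lower in macrophage-like than in monocyte-like cells (median -1.83), and against microglia-like cells 4 were higher and 1 lower (median -0.028). Fewer genes tested sets these counts. For macrophage-like against microglia-like cells the count of lower genes was 1 with DESeq2, without the library (replicate) block and at Leiden 1.2. It was also 1 with the Arg1 cluster added and with clusters weighted equally, where c3 was the only macrophage-like cluster. The count was 0 of 31 after thinning, 7 with plain CPM and 6 without c14. Without the block 10 were higher, with Oas1a, Dhx58, Zbp1 and the lower call on Ifit3 lost; the block changed no other call in the other comparisons. The count of higher genes was 20 with the Arg1 cluster and 5 without c14. The median was -0.043 with plain CPM, where that of all genes was -0.32, and -0.16 without c14, and leaving out a replicate gave -0.21 to 0.91. With clusters weighted equally, and so with c3 alone, Ifit3 turned to 0.17 (adjusted p = 0.376) and Ifit3b to 0.56 (adjusted p = 0.0463). Ifi27l2a turned to -0.82 (adjusted p = 0.0178) without c14. For macrophage-like against monocyte-like cells the count of higher genes was 0 with doublets kept, and the median was -2.05 with the Arg1 cluster, -2.74 without c14 and -2.30 to -2.01 without a replicate. The Arg1, c14 and plain CPM alternatives were chosen after seeing the data. The cause was not tested.

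The Ifit-positive share of microglia-like cells was 5.08% and 4.18% at 1 UMI, 0.447% and 0.463% at 3 UMIs, and 2.84% and 2.78% at 2000 UMIs per cell. In monocyte-like cells it was 16.0% and 24.9% at 1 UMI, 7.69% and 10.1% at 3 UMIs, and 14.8% and 20.7% at 2000 UMIs. The median ratio in microglia-like cells was 3.54 and 5.64 at 1 UMI, 6.98 and 11.9 at 3 UMIs, and 5.26 and 8.82 at 2000 UMIs. In monocyte-like cells it was 3.72 and 3.25 at 1 UMI, 4.10 and 4.45 at 3 UMIs, 4.01 and 3.90 at 2000 UMIs, and 4.25 and 3.86 with doublets kept. Depth limits sparse genes such as Ifi44, Oas2 and Oas3 in microglia-like cells. With 2 libraries of 1 group, no statement about stroke against control can be made.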

Other observations

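Ifnb1 was spread unevenly over the microglia-like clusters. Cluster c0, led by Il1a and Egr1, held 97 and 34 UMIs, c2 90 and 34, and c7, led by Pik3ip1, 49 and 17. Cluster c1, led by Hspa1b and P2ry12, held 1 and 6 UMIs in 871 and 1740 cells. An unnamed cluster led by G0s2, Hdc and Gm5483 (c8) held 37 and 4 UMIs, and its 34 interferon-stimulated genes summed to 3746 and 3501 CPM. In cluster c14, where that sum was 9219 and 11625 CPM, no Ifnb1 UMI was found, and 3.73% of 241 cells in replicate 1 and 0 of 17 in replicate 2 were Ifit-positive. At least 3 other genes of the set, with Ifitm3, Ifi27l2a and Bst2 counted among them, were found in 70.7% and 87.5% of the Ifit-negative c14 cells. Without those 3 genes the c14 sum was 1968 and 2332 CPM.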
